A study of Homo sapiens with 6 samples.

Results

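Ribosome biogenesis is the stepwise making of the small (40S) and large (60S) ribosomal subunits. RNA polymerase I transcribes the rDNA repeats in the nucleolus into one long precursor, small nucleolar ribonucleoproteins (snoRNPs) modify and help to cleave it, and a series of assembly factors folds it with ribosomal proteins. Dividing cancer cells use this pathway heavily. The 41 genes described here are 38 protein-coding factors of this pathway and 3 identical rows annotated inside rDNA repeats, of 62700 gene identifiers in the files. They were chosen by their place in the pathway, and for the rDNA rows by identifier, when the difference between knockdown and control in these same libraries was already known, so the differences given for the members are a description and support nothing further. All 41 passed the filter of an average level of 1 or more in TPM, a share of transcripts scaled to 1000000 per library, as 14020 genes did.

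The libraries came from SK-Hep1, a human liver tumor line that the study calls endothelial-derived. There were 3 shControl libraries and 3 shRAB30-DT libraries, made from cells stably transduced with a lentiviral short hairpin RNA and selected with puromycin. The sample titles do not say which of the study's hairpins against *RAB30-DT* was used. The control libraries carry the genotype label WT although their titles name the control hairpin, and the other group is labelled as knockdown of *RAB30-DT*, a long noncoding RNA. The methods describe transduction and selection of whole cultures, and nothing states that replicates were separate cultures, so the errors measure a spread that may be technical.

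The targeted RNA was lower on average but did not separate the groups. *RAB30-DT* stood at 18.16, 11.51 and 13.91 TPM in control replicates 1, 2 and 3 and at 11.94, 10.85 and 6.5 TPM in knockdown replicates 1, 2 and 3. The lowest control lay below the highest knockdown library, and the difference in log2(TPM + 1) was −0.55 ± 0.27 (SE, n = 3 against 3), which did not pass limma's test (adjusted p = 0.355). Depth is unknown, since TPM keeps no read totals. Genes at 1 TPM or more numbered 13732 to 14094 per library. The hepatocyte markers *ALB*, *TTR* and *HNF4A* and the endothelial marker *KDR* were listed at 0 in all 6 libraries, *PECAM1*, *VWF*, *CDH5* and *TEK* stayed at or below 0.36 TPM, *PTPRC* and *CD3E* were at 0. *VIM* was at 3793.03 to 3997.41 TPM in control and at 4335.79 to 4784.16 TPM in knockdown. Among the other hepatocyte markers, *SERPINA1* was at 18.11 to 23.96 TPM in control and at 28.25 to 37.19 TPM in knockdown, and *APOA1* was at or below 0.46 TPM. *VWF* was at 0.07 to 0.13 TPM in control and 0.3 to 0.36 TPM in knockdown. *VIM*, *SERPINA1* and *VWF* had every knockdown library above every control library, beside 9.89% of all genes tested, while *APOA1* overlapped. The part of these markers in the differences of the members was not tested. The epithelial *EPCAM* and *CDH1* and the monocyte marker *CD14* were at or below 0.18 TPM. The endothelial origin given by the study was thus not visible in these defining markers.

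The 3 rDNA rows had the largest difference of all members. They are GENCODE gene models of 923 bases each on the minus strand of chromosome 21 in hg38: ENSG00000280800 at chr21:8210384-8211306, ENSG00000280614 at chr21:8393419-8394341 and ENSG00000281181 at chr21:8437629-8438551. Each lies wholly within an 18S ribosomal RNA gene, *RNA18SN2*, *RNA18SN3* and *RNA18SN1* in that order, and on the opposite strand, covering bases 754 to 1676 of the 1869-base 18S sequence. The models have one sequence (923 of 923 bases identical, GC content 54.8%). Its first 120 bases are shown because the gene model is the complement of 18S rRNA.
ENSG00000280800: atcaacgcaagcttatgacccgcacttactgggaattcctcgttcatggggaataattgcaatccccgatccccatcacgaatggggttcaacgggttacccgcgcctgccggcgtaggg
The library protocol describes no step that marks the strand, so reads of 18S rRNA and of a transcript of the other strand cannot be told apart, and reads cannot be split between the 3 copies. Another model, ENSG00000281383 at chr21:8254592-8255514, matches the others in 920 bases, with 2 mismatches and 2 gap bases. Bases 91 to 130 of ENSG00000280614 and 91 to 129 of this other model are set side by side, with capitals at the bases that differ.
ENSG00000280614: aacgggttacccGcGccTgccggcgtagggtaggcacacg
ENSG00000281383: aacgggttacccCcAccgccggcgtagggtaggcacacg

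Each of the 3 rows stood at 1844.15, 1752.01 and 1349.78 TPM in control replicates 1 to 3 and at 388.7, 426.97 and 485.14 TPM in knockdown replicates 1 to 3. Every control library was above every knockdown library. Together they took 0.405% to 0.553% of all TPM in the controls and 0.117% to 0.146% in the knockdown libraries. The summed level was 4946 ± 789 TPM in control and 1301 ± 146 TPM in knockdown (SD, n = 3 each), which is 3.8 times higher in control. The lowest control sum was 2.78 times the highest knockdown sum. The difference in log2(TPM + 1) was −1.92 ± 0.16 (SE) for each row, and −1.92 for their sum. Being one sequence, the rows count as 1 measurement. A bulk library cannot tell fewer cells of a type from less RNA per cell.

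Poly-T beads were used to select RNA, and mature rRNA has no poly-A tail. Which RNA gave the reads of the rDNA rows was not tested. Other RNAs made without a poly-A tail also stood lower in knockdown, and their part in the rDNA difference was not tested. *RN7SK*, a regulator of transcription elongation, was at 106.37, 41.42 and 99.27 TPM in control and at 0, 14.8 and 13.9 TPM in knockdown. *RMRP*, the RNA of a ribonuclease that cuts the rRNA precursor, was at 7.46, 13.68 and 31.14 TPM in control and at 0, 2.27 and 2.67 TPM in knockdown. Both had every control library above every knockdown library, as did the next RNA, beside 13.4% of all genes tested. *RN7SL1*, the RNA of the signal recognition particle, was at 696.9, 1434.13 and 1180.44 TPM against 314.11, 567.91 and 677.33 TPM. *RN7SL2* was at 635.43, 1766.96 and 1622.93 TPM against 262.25, 463.58 and 699.63 TPM, and here the groups overlapped. *RN7SK*, *RMRP*, *RN7SL1* and *RN7SL2* did not pass limma's test (adjusted p = 0.124, 0.08, 0.162 and 0.161 in that order). With each library's trend with GC content removed, *RMRP*, *RN7SL1* and *RN7SL2* passed as lower, beside 4.83% of all genes tested. The 5.8S rRNA genes *RNA5-8SN1*, *RNA5-8SN2* and *RNA5-8SN3*, which come from the same precursor as 18S rRNA, each stood at 7.68, 56.04 and 52.55 TPM in control and at 27.46, 49.57 and 43.16 TPM in knockdown. Their groups overlapped, and the lowest value was a control. *RPPH1* was at 0 to 9.32 TPM, *SCARNA2* at 0 to 1.18 TPM and *TERC* at 0 to 0.96 TPM with overlapping groups, while *RNU4-2* and *RNU5A-1* were listed at 0 throughout.

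**Figure D1:**
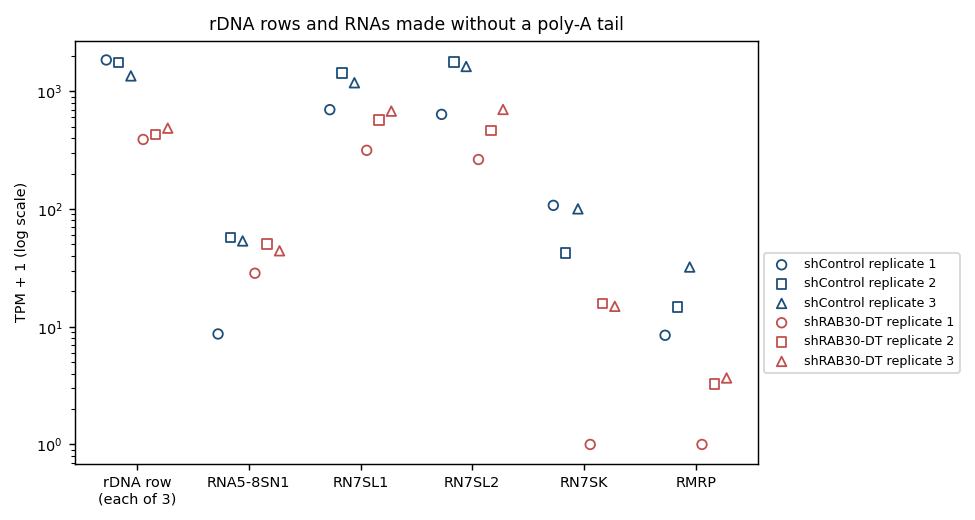
TPM + 1 on a log axis for 1 of the 3 identical rDNA rows and for RNAs made without a poly-A tail, 1 point per library (blue, shControl; red, shRAB30-DT; shape, replicate number). The rDNA row stood at 1349.78 to 1844.15 TPM in control and 388.7 to 485.14 TPM in knockdown, while the RNA5-8SN1 groups overlapped.

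Most protein-coding members were lower in knockdown, by far less than the rDNA rows. Of 38, 33 had a negative and 5 a positive difference, with a median of −0.29 and a range from −0.94 to 0.34 in log2(TPM + 1). Over all 14020 genes tested, 53.7% had a negative difference and the median was −0.04. With the rDNA rows included, 36 of 41 members were negative, and 33 of 41 after quantile normalization, where *NOP10*, *TSR1* and *PES1* became positive. In 12 of the 38, every knockdown library lay below every control library, beside 13.4% of all genes tested, and in 0 did every knockdown library lie above, beside 9.89% of all genes. The summed level of the 38 was 7045.9, 6209.9 and 7681.5 TPM in control replicates 1 to 3 and 5909.2, 5451.3 and 5206.2 TPM in knockdown replicates 1 to 3, so the sums did not overlap. *NPM1* alone held 1891.75 to 2512.28 TPM of the control sums and 1663.79 to 2182.75 TPM of the knockdown sums. Its own groups overlapped, so the sums reflect a few abundant members more than the list.

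None of the 38 passed limma's test over all genes (adjusted p under 0.05), while the 3 rDNA rows did. At an unadjusted p under 0.05, 8 of the 38 were lower and 0 higher, beside 9.70% lower and 7.06% higher of all genes tested. Over all genes, 52 passed as higher and 94 as lower, the latter 0.670% of those tested. With median-of-ratios scaling these became 60 and 69, and with quantile normalization 78 and 83. With each library's trend with GC content removed, 4 of the 38 passed as lower, beside 4.83% of all genes. These were *BOP1*, *DKC1*, *EBNA1BP2* and *NOP58*, and the 3 identical rDNA rows passed as well. Without control replicate 1, 5 members passed as lower, the 3 rDNA rows with *BOP1* and *EBNA1BP2*. In that fit, 307 of all 14006 genes tested passed as lower and 182 as higher.

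**Figure D2:**
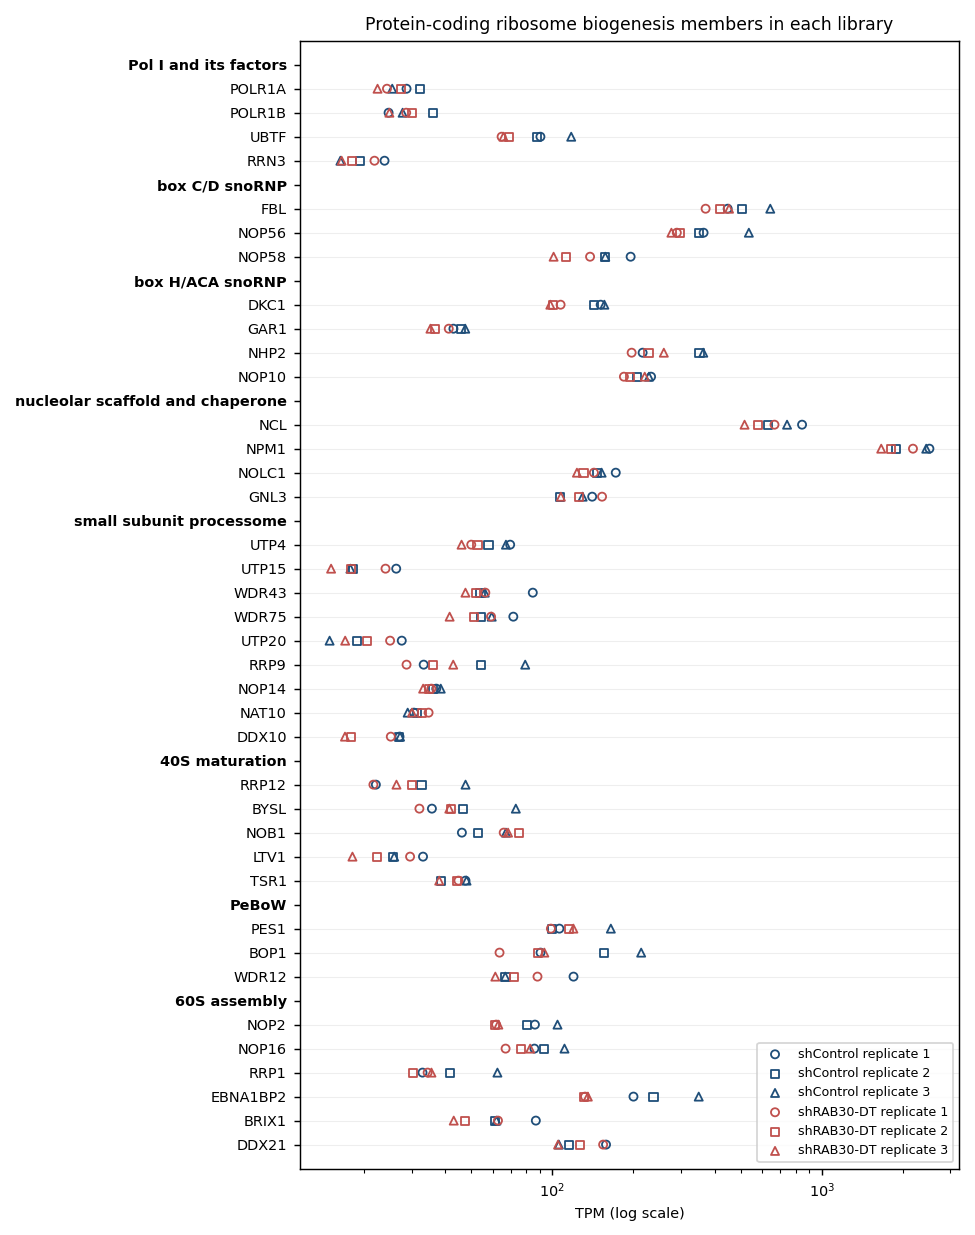
TPM of the 38 protein-coding members on a log axis, grouped by role, 1 point per library (blue, shControl; red, shRAB30-DT; shape, replicate number). Levels ran from about those of RRN3 (means 19.8 and 18.8 TPM) to those of NPM1 (2280 and 1880 TPM), and the groups did not overlap in 12 members, among them UBTF, DKC1 and EBNA1BP2.

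RNA polymerase I and its factors start the pathway, and all 4 members had negative differences, with a median of −0.14. *UBTF*, which opens rDNA chromatin and helps recruit the polymerase, was at 90.26, 87.89 and 117.44 TPM in control and at 64.76, 68.79 and 65.81 TPM in knockdown. The groups did not overlap, and the difference was −0.55 ± 0.17 (SE). *RRN3*, which links the polymerase to the promoter, was at 23.8, 19.25 and 16.32 TPM in control and at 21.84, 18.03 and 16.49 TPM in knockdown. These ranges nearly coincided, and the difference was −0.06 ± 0.21. The catalytic core subunits *POLR1A* and *POLR1B* had differences of −0.21 ± 0.18 and −0.07 ± 0.20 with overlapping groups. *POLR1B* turned positive without control replicate 2 or knockdown replicate 3, and *RRN3* without control replicate 1 or knockdown replicate 3.

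The box C/D snoRNP guides 2′-O-methylation of rRNA, and all 3 members were lower, with a median of −0.50. *NOP58*, a core scaffold of the particle, was at 195.22, 156.45 and 157.16 TPM in control and at 137.99, 112.39 and 101.03 TPM in knockdown. The groups did not overlap, and the difference was −0.53 ± 0.18. *NOP56*, its paralog and partner, was at 364.26, 349.23 and 536.46 TPM in control and at 289.75, 297.9 and 276.65 TPM in knockdown, also without overlap (−0.50 ± 0.18). The methyltransferase *FBL* was at 447.63, 505.5 and 644.29 TPM in control and at 370.62, 418.56 and 452.87 TPM in knockdown. Only control replicate 1 of *FBL* lay within the knockdown range, and the difference was −0.35 ± 0.17.

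The box H/ACA snoRNP guides pseudouridylation, and here the catalytic subunit had the largest difference. *DKC1*, the pseudouridine synthase, was at 151.08, 142.87 and 155.94 TPM in control and at 107.25, 100.78 and 98.24 TPM in knockdown. Replicates were tight in both groups (150 ± 6.61 and 102 ± 4.65 TPM, SD), and the difference was −0.55 ± 0.14. *NOP10*, a small structural subunit, was at 232.49, 205.41 and 228.36 TPM in control and at 184.32, 194.19 and 220.21 TPM in knockdown, with overlap and a difference of −0.16 ± 0.14. *GAR1* did not overlap (−0.26 ± 0.16) and *NHP2* did (−0.42 ± 0.22). Ratios between subunits within each library were also described. The ratio of *DKC1* to *NOP10* was 0.65, 0.696 and 0.683 in control and 0.582, 0.519 and 0.446 in knockdown, and the ratio of *GAR1* to *DKC1* was 0.284, 0.321 and 0.304 in control and 0.384, 0.364 and 0.359 in knockdown. Neither ratio overlapped between groups. These were 2 of the 9 subunit ratios computed, of which 3 did not overlap. Both contain *DKC1*, so they are not separate observations. No share over ratios of other genes was computed. Among single genes tested, 13.4% had every knockdown library below every control library and 9.89% had every one above.

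The nucleolar scaffold and chaperone proteins included the 2 protein-coding members with the highest TPM, *NPM1* and *NCL*, and 3 of 4 were lower. *NCL* (nucleolin), which binds the rRNA precursor, was at 845.54, 633.09 and 743.76 TPM in control and at 667.93, 579.31 and 517.1 TPM in knockdown, with a difference of −0.33 ± 0.16. Knockdown replicate 1 lay above control replicate 2. *NPM1* (nucleophosmin), a histone and ribosome chaperone, had 2280 ± 340 TPM in control and 1880 ± 268 TPM in knockdown (SD) with overlap (−0.27 ± 0.15). *NOLC1*, a snoRNP chaperone, did not overlap, with a difference of −0.25 ± 0.14. *GNL3* (nucleostemin), a nucleolar GTPase, was at 140.52, 106.53 and 129.52 TPM in control and at 152.89, 125.49 and 107.51 TPM in knockdown. Its difference was 0.03 ± 0.19, with a negative value without control replicate 2 or without knockdown replicate 1.

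The small subunit processome, the large particle that cleaves the precursor toward 18S rRNA, had 9 members. Negative differences were found for 7 of them and positive ones for 2, and the median was −0.29. *RRP9*, a protein of the U3 snoRNP, had the largest difference and also a wide spread. It was at 33.26, 54.23 and 79.25 TPM in control and at 28.73, 36.07 and 42.82 TPM in knockdown, with a difference of −0.55 ± 0.31. Control replicate 1 lay inside the knockdown range, and the difference was −0.26 without control replicate 3, where that of *DDX10* was larger, and −0.87 without control replicate 1. *DDX10*, an RNA helicase, was nearly constant in control at 27.05, 26.96 and 27.18 TPM, and stood at 25.11, 17.82 and 16.97 TPM in knockdown (−0.44 ± 0.20). *UTP4* and *NOP14* also had every knockdown library below every control library, with differences of −0.38 ± 0.16 and −0.10 ± 0.15. *UTP15*, *WDR43* and *WDR75* ranged from −0.29 to −0.13 and overlapped, and *UTP15* turned positive without control replicate 1 or without knockdown replicate 3. *NAT10*, which acetylates 18S rRNA, was at 30.61, 31.32 and 29.01 TPM in control and at 34.69, 32.73 and 30.11 TPM in knockdown, a difference of 0.10 ± 0.16. *UTP20* had a difference of 0.05 ± 0.26, with a negative value without control replicate 3 or without knockdown replicate 1.

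In the later maturation of the 40S subunit, 4 of 5 members were lower and all groups overlapped. *NOB1*, the nuclease that makes the last cut of 18S rRNA, was the member with the largest positive difference. It was at 46.12, 52.97 and 67.21 TPM in control and at 65.93, 75.41 and 68.44 TPM in knockdown, a difference of 0.34 ± 0.18. Only control replicate 3 reached the knockdown range. *BYSL* (bystin), which acts on 40S precursors, was at 35.69, 46.58 and 73.14 TPM in control and at 32.07, 42.18 and 41.41 TPM in knockdown, a difference of −0.37 ± 0.27, which was −0.09 without control replicate 3 and −0.60 without control replicate 1. The export factors *RRP12* and *LTV1* and the GTPase-like *TSR1* had differences of −0.32 ± 0.28, −0.28 ± 0.22 and −0.08 ± 0.17. That of *RRP12* was −0.06 without control replicate 3 and −0.59 without control replicate 1.

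The PeBoW complex of *PES1*, *BOP1* and *WDR12*, needed to process the precursor of the 60S rRNAs, was uneven. *BOP1* was at 90.36, 155.48 and 213.62 TPM in control and at 63.63, 88.13 and 93.33 TPM in knockdown, with a difference of −0.83 ± 0.31. Control replicate 1 lay within the knockdown range, and the difference was −0.55 without control replicate 3 and −1.17 without control replicate 1. *PES1* was at 106.16, 99.29 and 164.82 TPM in control and at 98.72, 114.97 and 119.67 TPM in knockdown, a difference of −0.12 ± 0.22. *WDR12* overlapped as well (−0.15 ± 0.26), and both it and *PES1* turned positive without 1 control library (replicate 1 for *WDR12*, replicate 3 for *PES1*). The ratio of *BOP1* to *PES1* was 0.851, 1.57 and 1.3 in control and 0.645, 0.767 and 0.78 in knockdown, without overlap, whereas that of *BOP1* to *WDR12* overlapped.

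Among the other 60S assembly factors, 5 of 6 were lower, with a median of −0.42. *EBNA1BP2*, a nucleolar scaffold protein of early 60S precursors, had the largest difference of the protein-coding members. It was at 200.02, 237.34 and 349.47 TPM in control and at 132.21, 130.55 and 135.38 TPM in knockdown, a difference of −0.94 ± 0.21. The knockdown libraries lay close together and below all controls, while the controls were spread (262 ± 77.8 TPM, SD). *NOP2*, a methyltransferase of 28S rRNA, was at 86.12, 80.62 and 104.46 TPM in control and at 61.82, 61.17 and 62.98 TPM in knockdown, also without overlap (−0.53 ± 0.16). *NOP16* did not overlap (−0.35 ± 0.17), and *RRP1* and *BRIX1* did (−0.39 ± 0.24 and −0.44 ± 0.22). The difference of *RRP1* was −0.14 without control replicate 3 and −0.60 without control replicate 1. *DDX21*, a helicase linked to both rDNA transcription and processing, was at 158.18, 115.7 and 105.65 TPM in control and at 154.31, 127.02 and 104.97 TPM in knockdown. Its ranges nearly coincided (0.03 ± 0.21), and the value was negative without control replicate 2, without control replicate 3 or without knockdown replicate 1.

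**Figure D3:**
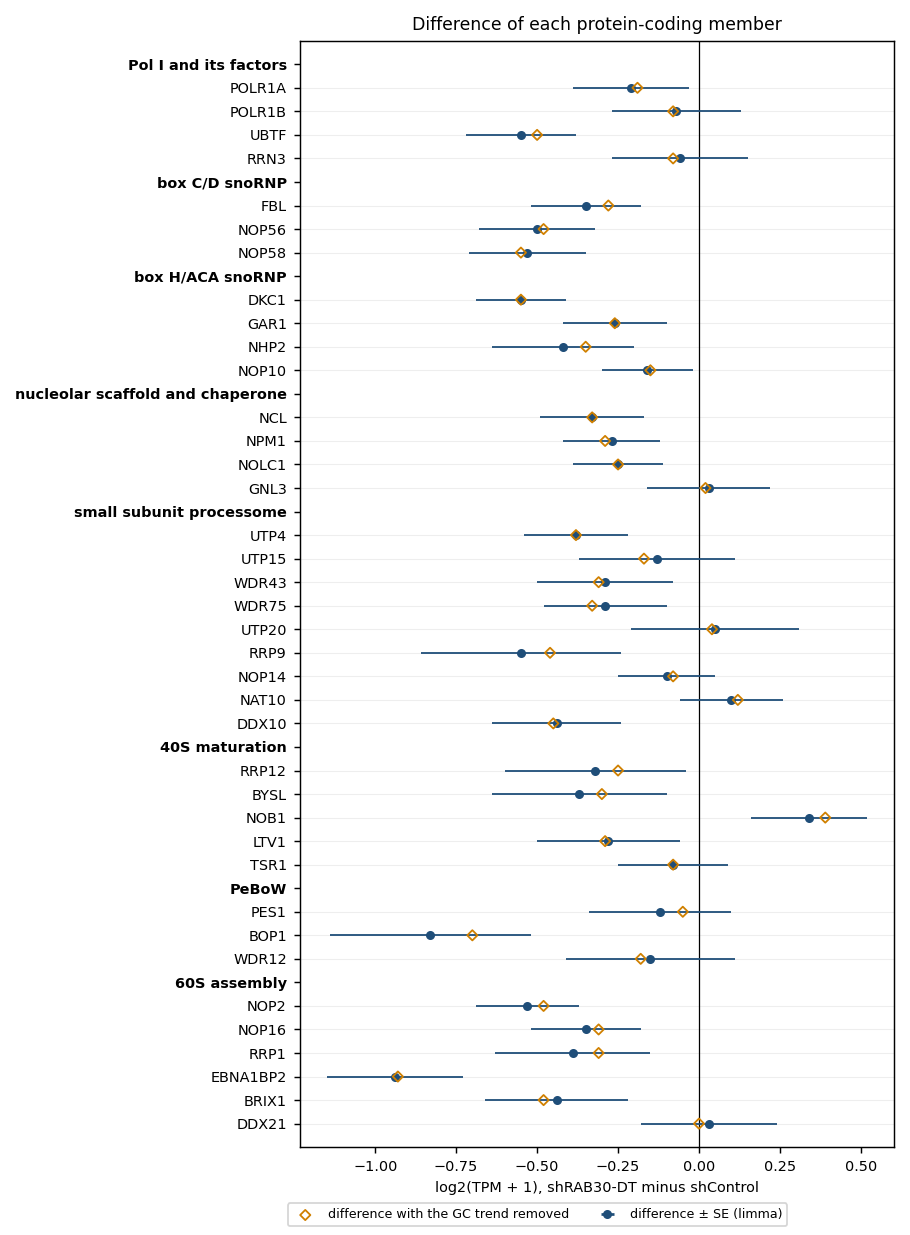
Difference in log2(TPM + 1), shRAB30-DT minus shControl, for the 38 protein-coding members by role (blue points with SE, n = 3 against 3; open diamonds, with each library's trend with GC content removed). EBNA1BP2 (−0.94) and BOP1 (−0.83) lie farthest to the left, and NOB1 (0.34) farthest to the right.

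The members varied among themselves within the control group, along the GC content of their transcripts (38.2% for *BRIX1* to 65.6% for *BOP1*). From control replicate 1 to control replicate 3, *BOP1* was 2.36 times, *RRP9* 2.38 times and *RRP12* 2.15 times as high, while *UTP20* was at 0.54 and *WDR12* at 0.558 of its level. Across the 38 members the log2 difference of these control libraries had r = 0.888 with GC content (Spearman's rho 0.881), and that of knockdown replicates 3 and 1 had r = 0.904 (rho 0.912). Members are not independent here, since they share the libraries. The mean knockdown difference had r = −0.313 with GC content (rho −0.324). Over all genes, GC content was set against each library's deviation from a gene's mean over the 6 libraries. Spearman's rho of this deviation was −0.607, 0.297 and 0.489 in control replicates 1 to 3. In knockdown replicates 1 to 3 it was −0.523, 0.022 and 0.33. Libraries of both groups thus lay at each end, in the same order of replicate numbers. These deviations sum to 0 for each gene, so opposite signs are largely built in. With the trend removed, the median over the 38 was −0.29 and the differences of *BOP1* and *EBNA1BP2* were −0.70 ± 0.14 and −0.93 ± 0.22. The coefficient of variation over 3 libraries had a median of 17.9% in control and 10.2% in knockdown, and was larger in control for 27 of 38 members.

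**Figure D4:**
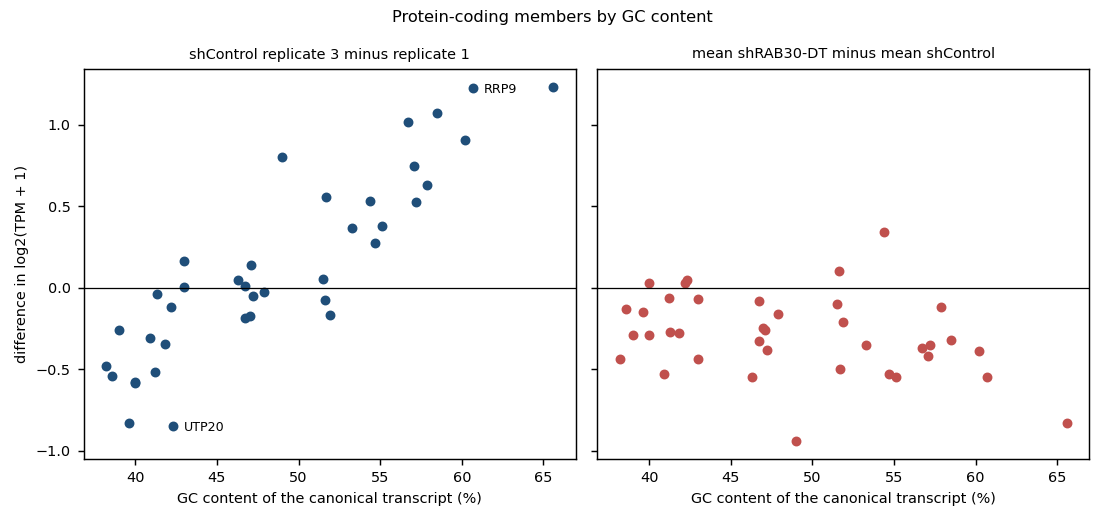
GC content of each member's canonical transcript (percent) against the difference in log2(TPM + 1), for control replicate 3 minus control replicate 1 (left) and mean knockdown minus mean control (right), 1 point per protein-coding member. The left points rise with GC content (r = 0.888), and the right points lie mostly below 0 over the whole range (r = −0.313).

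The rule that chose the members did not use promoter sequence. RefSeq promoters (GRCh38.p14, 250 bases before to 50 after the start) matched 34 of the 38. A gene was counted once, if any of its promoters held the motif. The E-box CACGTG, a palindrome bound by MYC and related factors, was in 16 of the 34 members (47.1%). It was in 26.9% of 104 other pathway genes, in 12.7% of 10093 genes tested and in 8.77% of all 27305 genes with a promoter. The letters CCGGAAG, searched on both strands and resembling the binding site of ETS factors, were in 13 of the 34 members (38.2%). The other shares were 43.3% of the other pathway genes, 23.1% of genes tested and 12.2% of all genes with a promoter. CCAAT on either strand was in 47.1% of the members, against 38.5%, 43.3% and 39.7% in the same order. The NRF1 palindrome was in 8.82% of the members, against 2.88%, 2.72% and 1.52%. Overlaps between these motifs were not removed. The 16 members with an E-box had a median log2 difference of −0.27, with 12 of 16 negative, and the 18 without one had −0.31, with 17 of 18 negative. Positive members with an E-box were *GNL3*, *UTP20*, *NAT10* and *DDX21*. The 6 members whose E-box lies wholly before the start are shown as 30 bases with the E-box in capitals, from the lowest to the highest difference.
EBNA1BP2: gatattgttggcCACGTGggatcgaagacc
UTP4: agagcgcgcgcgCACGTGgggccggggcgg
NOP10: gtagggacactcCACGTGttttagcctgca
DDX21: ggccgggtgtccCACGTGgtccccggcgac
UTP20: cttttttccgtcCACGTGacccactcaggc
NAT10: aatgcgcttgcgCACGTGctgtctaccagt
They lie at chr1:43172790-43172819 (minus strand), chr16:69132621-69132650 (plus), chr15:34343289-34343318 (minus), chr10:68956604-68956633 (plus), chr12:101280083-101280112 (plus) and chr11:34105602-34105631 (plus). The first base of the E-box was 237, 16, 170, 31, 10 and 15 bases before the start in that order. These 6 differ by −0.94, −0.38, −0.16, 0.03, 0.05 and 0.10 on the log2 scale. 

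A list of 123 other ribosome biogenesis genes, all of which passed the filter, gave the pathway around the members. Of these, 92 were negative and 31 positive, with a median of −0.22, beside −0.29 for the 38 members. In 29 every knockdown library lay below every control library, and in 3 above, beside 13.4% and 9.89% of all genes. limma's test called 0 of the 123. At an unadjusted p under 0.05, 12 were lower and 3 higher, beside 9.70% and 7.06% of all genes. With the GC trend removed, 5 were called lower and 3 higher, beside 4.83% and 3.96% of all genes. The largest differences without overlap were those of *EXOSC2*, *RPF1* and *EXOSC9*. *EXOSC2*, a cap subunit of the RNA exosome, which trims rRNA ends, was at 41.73, 44.73 and 69.58 TPM in control and at 26.81, 25.42 and 24.01 TPM in knockdown (−0.97 ± 0.22). *RPF1*, a 60S assembly factor, was at 40.28, 32.33 and 27.93 TPM against 21.84, 18.95 and 18.74 TPM (−0.72 ± 0.19). *EXOSC9*, a ring subunit of the exosome, was at 50.53, 37.35 and 40.93 TPM against 29.82, 23.83 and 23.61 TPM (−0.71 ± 0.19). All 11 exosome-related genes of this list, *EXOSC1* to *EXOSC10* and *MTREX*, were negative (median −0.45). By comparison, the 11 polymerase I genes had 5 negative and 6 positive values and a median of 0.11. Among the latter, *POLR1D*, a subunit shared with RNA polymerase III and named after its values were seen, was at 106.02, 98.18 and 74.44 TPM in control and at 155.19, 146.44 and 138.88 TPM in knockdown, with every knockdown library above every control library (0.67 ± 0.17). It was called higher with the GC trend removed.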

How the data were processed

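RNA sequencing of 3 shControl and 3 shRAB30-DT libraries of SK-Hep1 cells was analysed. The authors deposited TPM values, 1 file per library, rounded to 2 decimals. The methods name fastp, STAR and RSEM with a GENCODE annotation, whereas the submitters' processing notes name fastp, HISAT2 2.0.5 and hg38. All 62700 versioned identifiers are those of GENCODE release 44, used here for names, positions, lengths and GC content of canonical transcripts.

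The 14020 genes averaging 1 TPM or more over the 6 libraries were tested on log2(TPM + 1) with limma 3.58.1 (lmFit, eBayes with trend, 2-sided) in R 4.3.3, with Benjamini-Hochberg adjustment over all of them and a threshold of 0.05. A fold on this scale understates changes of low genes. TPM is relative to all other RNA of a library and gives no depth. The scripts were tested on simulated data.

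The members, and the lists of other pathway genes, markers and RNAs without a poly-A tail, were chosen with earlier results of these data known. Named were, for each role, the members with the largest and the smallest difference and every called member, and of the other pathway genes, with none called, the 3 largest without overlap. Some further members were named after their values were seen. Alternatives were pseudocounts of 0.1 and 5, no filter or 5 TPM, other scalings, arrayWeights, removal of each library's GC trend (loess, span 0.3), a replicate block and leaving out each library. Promoters came from RefSeq and were searched with Python 3.11.15.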

Additional observations from a re-analysis of the deposited data

How the results depend on the processing

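The log2 difference of the summed rDNA rows stayed between −2.06 and −1.80 under all alternatives run, and the rows passed the test in each fit. The median over all 41 members, which takes the identical rDNA rows 3 times, was −0.32, beside −0.29 over the 38. The median over the 41 moved to −0.21 with quantile normalization and −0.22 with arrayWeights. It ran from −0.38 to −0.24 with 1 library left out. The 3 members called, which are the rDNA rows, became 13 with arrayWeights (12 lower and *NOB1* higher). In that fit, 1931 of all 14020 genes tested were called lower and 1287 higher. Its library weights were 0.325, 3.0 and 0.316 in control replicates 1 to 3 and 0.779, 4.39 and 0.948 in knockdown replicates 1 to 3. Replicate 2 of each group thus weighed most. The members called became 7 with the GC trend removed, and 3 to 5 with 1 library left out. All counts of called members in this section take these identical rows as 3. The 0 called of the other pathway genes became 23 with arrayWeights and 8 with the GC trend removed, and 0 to 2 with 1 library left out. The 146 genes called overall became 13 with no filter, 3218 with arrayWeights, 1232 with the GC trend removed, and 12 to 489 with 1 library left out (489 without control replicate 1, 12 without control replicate 2, and 18, 15 and 16 without knockdown replicates 1, 2 and 3).

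Deviations from the group mean correlated between same-numbered libraries with r = 0.41, 0.0359 and 0.279. For replicates 1 and 3 the same number gave the highest r, whereas knockdown replicate 2 correlated best with control replicate 3 (0.0614). Control replicate 3 with knockdown replicate 1 had −0.316, and control replicate 1 with knockdown replicate 3 had −0.355. Deviations within 3 libraries sum to 0, so these values cannot decide whether the numbers mark pairs. The sample titles name no pairs, and the main fit used none. With a replicate block, 7 members, 6 other pathway genes and 861 genes overall were called, and with the block and the GC trend removed 7, 7 and 1056.

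Of 697 single-member values under alternatives, 21 in 10 members changed sign, and none was called in either direction. *NOP10* became 0.05, *TSR1* 0.03 and *PES1* 0.04 with quantile normalization, and *TSR1* 0.11, *PES1* 0.12 and *WDR12* 0.03 with arrayWeights. With 1 library left out, the range was −0.18 to 0.08 for *POLR1B*, −0.19 to 0.07 for *RRN3*, −0.10 to 0.15 for *GNL3*, −0.30 to 0.05 for *UTP15*, −0.14 to 0.28 for *UTP20*, −0.25 to 0.11 for *PES1*, −0.29 to 0.13 for *WDR12* and −0.11 to 0.20 for *DDX21*. For these moves the cause was not tested. Depth limits cannot be given without read totals.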

Other observations

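The 7 letters GAGTGAA were picked in earlier work on these same libraries, so their counts are only a description. Counting 3′UTRs of at least 50 bases, they were in 0 of 38 protein-coding members and in 14 of 120 other pathway genes (11.7%). Among genes tested they were in 1446 of 11538 (12.5%). The median 3′UTR had 441 bases in the members, 864 in the other pathway genes and 1338 in all genes tested, so the windows searched were not of equal length.

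The rDNA model ENSG00000281383, which differs from the 3 identical rows at few bases, was at or below 0.69 TPM in every library, while each of the 3 rows stood at 388.7 TPM or more. Mitochondrial RNAs took 8.75% to 10.6% of all TPM in control and 8.8% to 11.1% in knockdown, so this share overlapped between the groups.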
